A study of Saccharomyces cerevisiae with 12 samples.

Results

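The acid and alkaline phosphatase genes of budding yeast (*Saccharomyces cerevisiae*) described here were *PHO5*, *PHO11*, *PHO12*, *PHO3*, *PHO8* and *PHO13*. They were chosen by name, with results of these same cultures known, so that their levels and fold changes are given as a description, without a test. These were 6 of the 7112 features in the deposited table, and all 6 were among the 6691 features with enough counts to be tested. Poly(A) RNA was sequenced from 12 cultures in 4 groups of 3: *sis2*Δ in 0.5 mM KCl, WT in 0.5 mM KCl, *sis2*Δ in 7.35 mM KCl and WT in 7.35 mM KCl, where 7.35 mM is the standard potassium concentration. The mutant carried the allele sis2d0::kanMX, in which *SIS2* is replaced by a drug-resistance cassette, and every culture was mating type a (MATa). Each genotype was represented by 1 strain, so that a difference between the genotypes cannot be told apart from another difference between these strains. Overnight cultures in standard potassium were diluted into either concentration in biological triplicate and kept in exponential growth at low density, and the comparisons addressed how transcription responds to low external potassium and to the loss of *SIS2*, which encodes an inhibitory subunit of the protein phosphatase Ppz1.

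Yeast makes several phosphatases that release inorganic phosphate from organic phosphates. Pho5, Pho11 and Pho12 are secreted acid phosphatases, which act outside the plasma membrane, and their genes belong to the PHO pathway: when phosphate is scarce, the inhibitor Pho81 blocks the cyclin-dependent kinase complex Pho80-Pho85, and the unphosphorylated transcription factor Pho4 stays in the nucleus and, with Pho2, activates its targets. Pho3 is a secreted acid phosphatase of the same family that releases thiamine from thiamine phosphates, and its gene is repressed by thiamine rather than by phosphate. Pho8 is the vacuolar alkaline phosphatase, likewise a target of Pho4, and Pho13 is a cytosolic phosphatase that removes phosphorylated by-products of sugar metabolism. The medium that the paper describes for its potassium titrations was supplied with phosphate, as sodium dihydrogen phosphate. Phosphate levels in these cultures were not examined here.

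The upstream DNA of these genes is shown because it holds the letters that Pho4 is known to bind. A pair of hexamers was searched on both strands in the 600 bases before each coding start of the R64 genome: CACGTG, a palindrome, and its weaker variant CACGTT, which reads AACGTG on the other strand. They differ in an end base, so that no match of the palindrome is also a match of the variant. Either motif is in capitals below, each window reads 5′ to 3′ on the strand of the gene, and the sequences are from the RefSeq genome. The windows are chrII:431152-431351 on the minus strand for *PHO5*, chrI:225020-225219 on the plus strand for *PHO11*, chrII:429302-429501 on the minus strand for *PHO3*, chrIV:1420726-1420825 on the minus strand for *PHO8* and chrIV:32036-32115 on the plus strand for *PHO13*.
PHO5: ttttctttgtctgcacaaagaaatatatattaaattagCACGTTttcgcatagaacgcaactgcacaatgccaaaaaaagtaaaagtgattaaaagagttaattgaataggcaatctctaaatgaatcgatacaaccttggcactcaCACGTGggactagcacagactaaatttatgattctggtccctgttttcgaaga
PHO11: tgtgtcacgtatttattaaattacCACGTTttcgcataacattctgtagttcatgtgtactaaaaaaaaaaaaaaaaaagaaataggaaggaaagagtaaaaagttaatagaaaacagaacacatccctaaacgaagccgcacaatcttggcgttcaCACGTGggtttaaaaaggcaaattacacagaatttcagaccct
PHO3: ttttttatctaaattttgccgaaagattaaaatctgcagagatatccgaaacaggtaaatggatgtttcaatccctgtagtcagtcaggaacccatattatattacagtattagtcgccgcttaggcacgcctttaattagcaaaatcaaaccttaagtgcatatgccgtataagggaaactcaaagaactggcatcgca
PHO8: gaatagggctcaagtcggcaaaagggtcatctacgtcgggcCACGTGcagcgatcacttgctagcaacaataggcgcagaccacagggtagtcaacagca
PHO13: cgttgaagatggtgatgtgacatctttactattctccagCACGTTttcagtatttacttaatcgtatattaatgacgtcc

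*PHO5* held the palindrome 253 bases and the variant 362 bases before its coding start. *PHO11* held them at 283 and 416 bases, and *PHO12* at 283 and 418 bases. The 361 bases directly before the coding starts of *PHO11* and *PHO12* were identical. *PHO8* held the palindrome at 534 and the variant at 380 bases, both inside the neighbouring gene *CWC21*. *PHO13* held only the variant, at 221 bases, and *PHO3* held neither. Among 6018 protein-coding genes, 7.21% had the palindrome in a window of this length, 18.7% had the variant and 1.61% had both. A match is a description of the letters and not of binding.

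**Figure D1:**
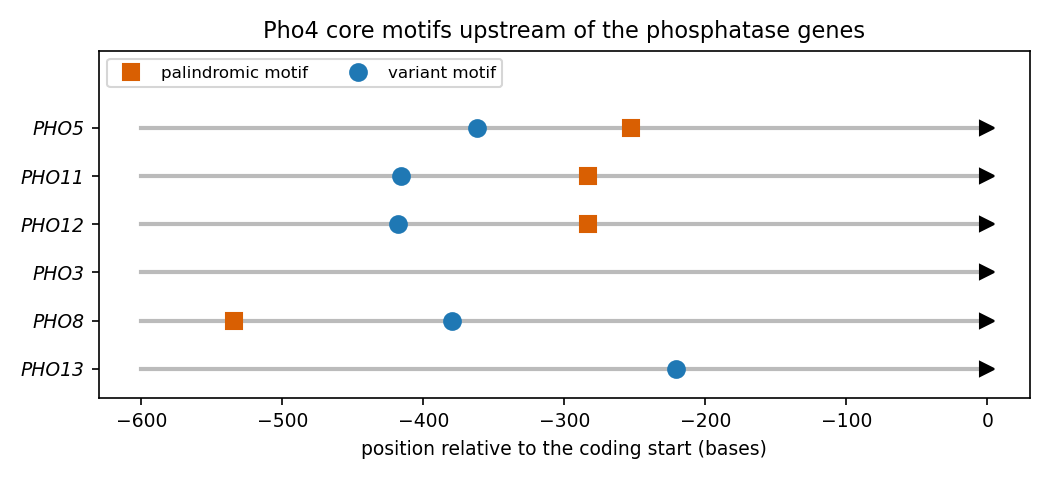
Positions of the hexamers that Pho4 is known to bind, in bases relative to the coding start (arrowhead at 0), over the 600 bases upstream of each of the 6 phosphatase genes. Squares stand for the palindromic motif and circles for the variant; *PHO5*, *PHO11*, *PHO12* and *PHO8* hold both, *PHO13* holds only the variant, and *PHO3* holds neither.

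The genes lie on 4 chromosomes of the R64 build. *PHO5* (YBR093C) lies at chrII:429548-430951 on the minus strand, and *PHO3* (YBR092C) at chrII:427698-429101 follows it on the same strand after a gap of 446 bases. *PHO11* (YAR071W) lies at chrI:225460-226863 and *PHO12* (YHR215W) at chrVIII:552099-553502, both on the plus strand. *PHO8* (YDR481C) lies at chrIV:1418550-1420250 on the minus strand and *PHO13* (YDL236W) at chrIV:32296-33234 on the plus strand. The coding sequences of the 4 acid phosphatases have the same length of 1404 bases. *PHO11* and *PHO12* differ at 4 of these bases (99.7% identity), *PHO5* and *PHO3* at 189 (86.5%), and the other pairs were 81.6% to 83.6% identical. Reads from most of the *PHO11* and *PHO12* transcripts therefore match both genes, and their separate values are uncertain. Their sum does not depend on how reads shared between these 2 genes were divided. It can still depend on reads shared with a further feature, and was 26128.83 deposited counts in replicate 3 of *sis2*Δ in 0.5 mM KCl. That part was not tested.

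Levels are given as CPM, the counts scaled to a common library total and by edgeR's TMM factors, and fold changes as log2 values ± SE from a fit of all 6691 features over the 12 libraries, which held 35451323 to 46543107 counts each. *SIS2* itself had 39.5 to 88.5 deposited counts in the *sis2*Δ libraries, against 3119.5 to 3807.5 in the WT libraries. Of the mating type markers, the a-specific genes *MFA1*, *MFA2*, *STE2*, *BAR1* and *AGA2* were between 106 and 800 CPM, and the α-factor gene *MF(ALPHA)1* was between 0.274 and 3.16 CPM. The other 3 α markers were lower than the a markers but not at 0, up to 6.09 CPM for *MF(ALPHA)2*, 22.1 CPM for *STE3* and 45.5 CPM for *SAG1*. Each batch named in the labels held 1 library of every group, and values within the batches are given beside the pooled ones.

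The secreted, phosphate-repressible acid phosphatases *PHO5*, *PHO11* and *PHO12* were higher in 0.5 mM KCl than in standard potassium in either strain. In 0.5 mM KCl they were also higher in *sis2*Δ than in WT. *PHO8* was higher in 0.5 mM KCl by a smaller factor. *PHO3* was lower in 0.5 mM KCl, and *PHO13* was at a similar level in all 4 groups. In these bulk samples, more cells with a transcript and more transcript per cell cannot be told apart.

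*PHO5*, the main secreted acid phosphatase, had 2120, 1820 and 2580 CPM in *sis2*Δ in 0.5 mM KCl, 1160, 970.0 and 1170 CPM in WT in 0.5 mM KCl, 31.3, 32.6 and 31.1 CPM in *sis2*Δ in 7.35 mM KCl, and 26.4, 27.0 and 27.0 CPM in WT in 7.35 mM KCl. None of the 4 groups overlapped with another, and the 3 libraries of *sis2*Δ in 0.5 mM KCl were the highest of all 12. The level in 0.5 mM KCl was 68.6-fold that in 7.35 mM KCl in *sis2*Δ (6.10 ± 0.117 on the log2 scale) and 41.1-fold in WT (5.36 ± 0.114). Between the strains, *sis2*Δ was higher by 0.98 ± 0.0934 in 0.5 mM KCl and by 0.24 ± 0.102 in 7.35 mM KCl. The difference between these strain differences was 0.74 ± 0.138. Within the 3 batches, the strain difference ranged from 0.87 to 1.14 in 0.5 mM KCl and from 0.21 to 0.27 in 7.35 mM KCl.

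Per kb of coding sequence, *PHO5* ranked 142 of 6001 protein-coding genes in *sis2*Δ in 0.5 mM KCl and 246 in WT in 0.5 mM KCl. In 7.35 mM KCl it ranked 3604 in *sis2*Δ and 3969 in WT. Its transcripts took up 0.216% of all counts in *sis2*Δ in 0.5 mM KCl, 0.110% in WT in 0.5 mM KCl, 0.00317% in *sis2*Δ in 7.35 mM KCl and 0.00271% in WT in 7.35 mM KCl. It thus lay below the middle of the ranking in standard potassium and near its top in low potassium.

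*PHO12*, a secreted acid phosphatase gene near the end of chromosome VIII, had 371, 313 and 431 CPM in *sis2*Δ in 0.5 mM KCl, 257, 187 and 199 CPM in WT in 0.5 mM KCl, 10.3, 12.1 and 10.2 CPM in *sis2*Δ in 7.35 mM KCl, and 8.95, 9.30 and 9.39 CPM in WT in 7.35 mM KCl. As for *PHO5*, the 4 groups did not overlap. Low potassium gave a 34.3-fold level in *sis2*Δ (log2 5.10 ± 0.127) and a 23.3-fold level in WT (4.54 ± 0.126). The strain difference was 0.79 ± 0.103 in 0.5 mM KCl and 0.23 ± 0.133 in 7.35 mM KCl.

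*PHO11*, its near-identical copy on chromosome I, was at lower levels, with 151, 120 and 183 CPM in *sis2*Δ in 0.5 mM KCl, 86.3, 65.9 and 68.3 CPM in WT in 0.5 mM KCl, 5.18, 5.68 and 5.17 CPM in *sis2*Δ in 7.35 mM KCl, and 5.43, 5.71 and 6.02 CPM in WT in 7.35 mM KCl. The strains did not overlap in low potassium and overlapped in standard potassium. Low potassium gave a 28.3-fold level in *sis2*Δ (log2 4.82 ± 0.137) and a 12.9-fold level in WT (3.68 ± 0.135). Between the strains, the log2 difference was 1.04 ± 0.108 in 0.5 mM KCl and -0.10 ± 0.162 in 7.35 mM KCl.

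The counts of *PHO11* and *PHO12* were also added into 1 feature. The sum was 522, 433 and 614 CPM in *sis2*Δ in 0.5 mM KCl, 344, 253 and 268 CPM in WT in 0.5 mM KCl, 15.5, 17.8 and 15.4 CPM in *sis2*Δ in 7.35 mM KCl, and 14.4, 15.0 and 15.4 CPM in WT in 7.35 mM KCl. It was 32.3-fold higher in low potassium in *sis2*Δ (log2 5.01 ± 0.128) and 19.3-fold higher in WT (4.27 ± 0.125). In 7.35 mM KCl, the summed strain difference was 0.12 ± 0.124, of the other sign than for *PHO11* alone, and the groups overlapped. In 0.5 mM KCl, the summed strain difference was 0.86 ± 0.105, with within-batch values from 0.60 to 1.20.

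**Figure D2:**
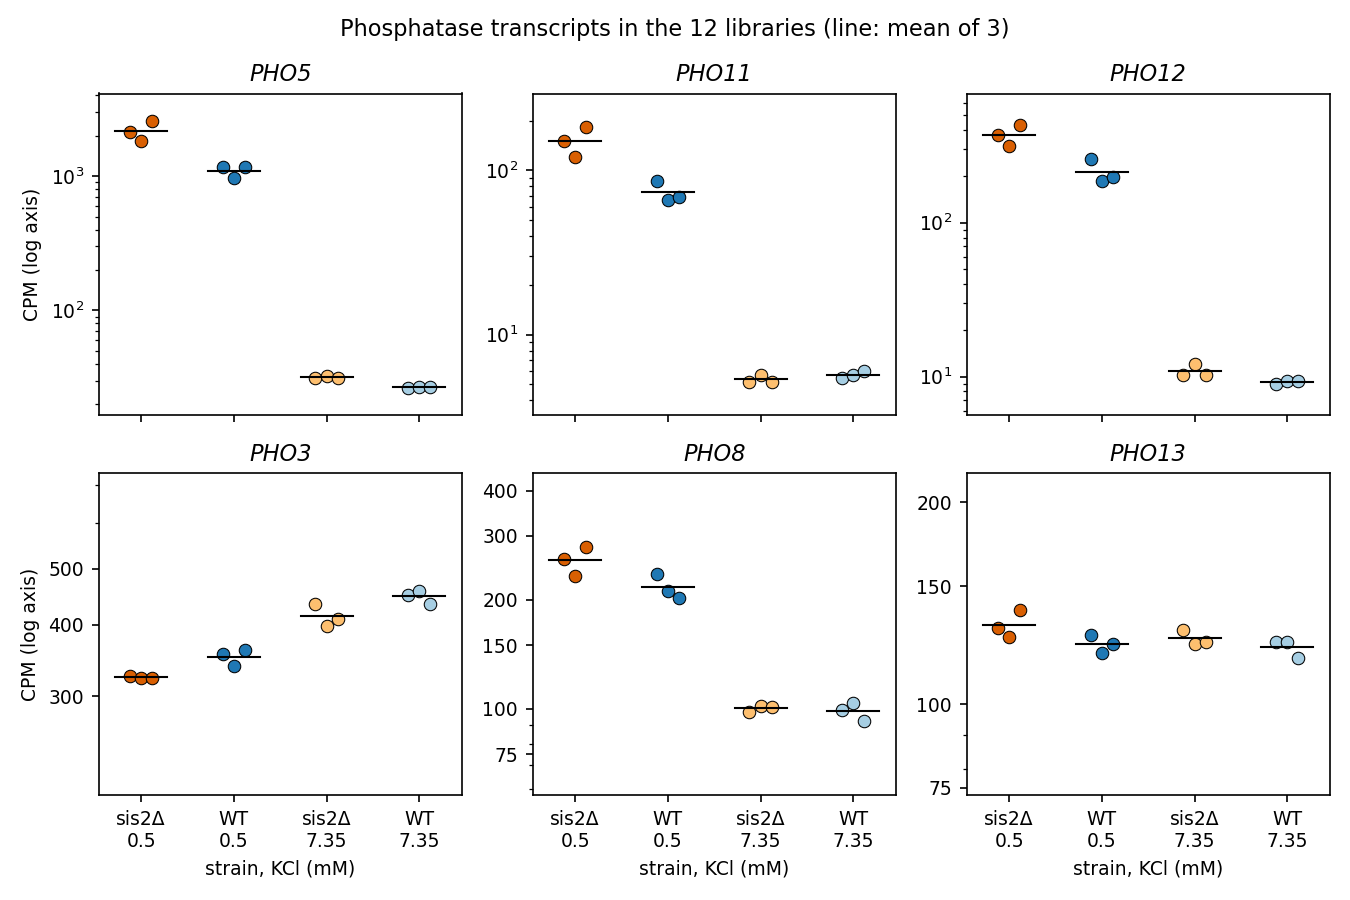
Level of each phosphatase transcript in CPM (vertical log axis, which differs between panels) in the 3 libraries of each strain and KCl concentration; points are libraries and the line is their mean. *PHO5*, *PHO11* and *PHO12* are higher in 0.5 mM KCl than in standard potassium, and in 0.5 mM KCl they are higher in *sis2*Δ than in WT. *PHO8* is higher and *PHO3* lower in 0.5 mM KCl, and *PHO13* stays between 117 and 138 CPM.

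The 3 repressible acid phosphatases did not keep a fixed ratio to each other. The counts of *PHO12* over those of *PHO11* were 2.36 to 2.61 in *sis2*Δ in 0.5 mM KCl, 2.83 to 2.98 in WT in 0.5 mM KCl, 1.97 to 2.13 in *sis2*Δ in 7.35 mM KCl and 1.56 to 1.65 in WT in 7.35 mM KCl. These ranges did not overlap, and the lower ratio was in *sis2*Δ in 0.5 mM KCl but in WT in 7.35 mM KCl. *PHO5* over the sum of both genes was 4.06 to 4.21 in *sis2*Δ in 0.5 mM KCl and 3.37 to 4.38 in WT in 0.5 mM KCl, which overlapped. That ratio was 1.83 to 2.03 in *sis2*Δ in 7.35 mM KCl and 1.75 to 1.84 in WT in 7.35 mM KCl, so that *PHO5* made up a larger part of the transcripts of these 3 genes in low potassium. The ratio of *PHO12* to *PHO11* rests on reads that can be assigned to either copy, and how shared reads were divided was not tested.

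**Figure D3:**
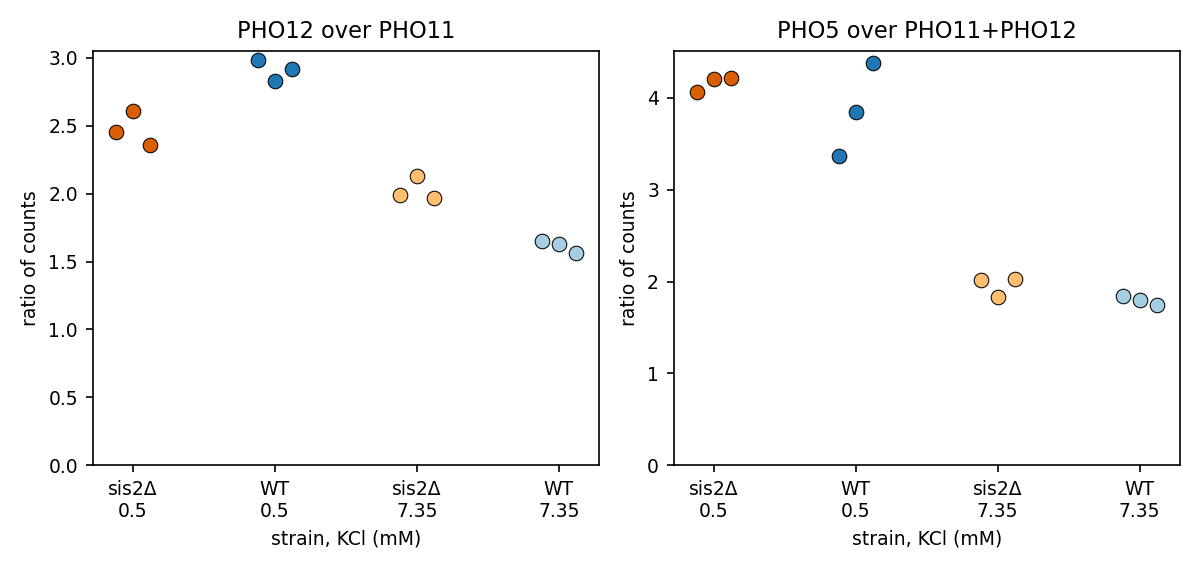
Ratio of counts between acid phosphatase genes in each of the 3 libraries of the 4 groups (linear axis from 0). Left, *PHO12* over *PHO11*, which lies between 1.56 and 1.65 in WT in 7.35 mM KCl and between 2.83 and 2.98 in WT in 0.5 mM KCl; right, *PHO5* over the sum of *PHO11* and *PHO12*, which is 3.37 or more in all libraries in 0.5 mM KCl and 2.03 or less in all libraries in 7.35 mM KCl.

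*PHO3*, the thiamine-repressible acid phosphatase next to *PHO5*, had the opposite course. It had 326, 323 and 323 CPM in *sis2*Δ in 0.5 mM KCl, 355, 339 and 361 CPM in WT in 0.5 mM KCl, 434, 397 and 409 CPM in *sis2*Δ in 7.35 mM KCl, and 451, 458 and 435 CPM in WT in 7.35 mM KCl. Its groups followed each other without overlap, by a margin of only 434 against 435 CPM between the nearest libraries of *sis2*Δ and WT in 7.35 mM KCl. On the log2 scale, low against standard potassium was -0.35 ± 0.0573 in *sis2*Δ and -0.35 ± 0.0572 in WT. The difference of *sis2*Δ from WT was -0.12 ± 0.0572 in 0.5 mM KCl and -0.12 ± 0.0571 in 7.35 mM KCl, which is about 2 SE. The counts of *PHO5* over *PHO3* were 5.63 to 8.00 in *sis2*Δ in 0.5 mM KCl, 2.87 to 3.26 in WT in 0.5 mM KCl, 0.0720 to 0.0822 in *sis2*Δ in 7.35 mM KCl and 0.0586 to 0.0620 in WT in 7.35 mM KCl. These 2 adjacent genes of equal length therefore changed places in abundance between the potassium concentrations.

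*DIA3*, a further gene of the acid phosphatase family with no motif of either kind upstream, was at 3.40 to 5.86 CPM in all libraries. Its mean was 5.68 ± 0.257 CPM in *sis2*Δ in 0.5 mM KCl, 4.94 ± 0.384 in WT in 0.5 mM KCl, 3.55 ± 0.196 in *sis2*Δ in 7.35 mM KCl and 4.05 ± 0.328 in WT in 7.35 mM KCl (SD, n = 3 each). In every group its highest library was below the lowest library of *PHO11*, a gene of nearly the same length.

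*PHO8*, the vacuolar alkaline phosphatase, had 259, 233 and 279 CPM in *sis2*Δ in 0.5 mM KCl, 236, 212 and 202 CPM in WT in 0.5 mM KCl, 98.2, 102 and 101 CPM in *sis2*Δ in 7.35 mM KCl, and 99.4, 104 and 92.3 CPM in WT in 7.35 mM KCl. Either strain had no overlap between the potassium concentrations, and the strains overlapped at each concentration. Low potassium gave a 2.56-fold level in *sis2*Δ (log2 1.36 ± 0.0717) and a 2.19-fold level in WT (1.13 ± 0.0714). The strain difference was 0.25 ± 0.0700 in 0.5 mM KCl, with within-batch values of 0.14 to 0.47, and 0.02 ± 0.0713 in 7.35 mM KCl.

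*PHO13*, the cytosolic phosphatase, had 130, 126 and 138 CPM in *sis2*Δ in 0.5 mM KCl, 127, 119 and 123 CPM in WT in 0.5 mM KCl, 129, 123 and 124 CPM in *sis2*Δ in 7.35 mM KCl, and 124, 124 and 117 CPM in WT in 7.35 mM KCl. Its groups overlapped in all 4 comparisons. Low against standard potassium was 0.07 ± 0.0550 in *sis2*Δ and 0.01 ± 0.0551 in WT, and the strain difference was 0.10 ± 0.0551 in 0.5 mM KCl and 0.04 ± 0.0550 in 7.35 mM KCl.

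Over the 6 genes, 5 did not overlap between the potassium concentrations in *sis2*Δ, 4 of them higher in 0.5 mM KCl, where 52.8% of all tested features did not overlap. In WT, likewise 5 of 6 did not overlap, 4 of them higher in 0.5 mM KCl, where the share over all features was 56.3%. Between the strains in 0.5 mM KCl, 4 of 6 did not overlap, 3 of them higher in *sis2*Δ, beside 16.8% of all features. In 7.35 mM KCl, 3 of 6 did not overlap, 2 of them higher in *sis2*Δ, beside 32.2% of all features. The genes were chosen with these contrasts known, so nothing is read from the counts. The median log2 difference over the 6 genes was 3.09 for potassium in *sis2*Δ, 2.41 for potassium in WT, 0.52 for strain in 0.5 mM KCl and 0.03 for strain in 7.35 mM KCl, and the median over all tested features lay between -0.00119 and 0.00232 in these.

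**Figure D4:**
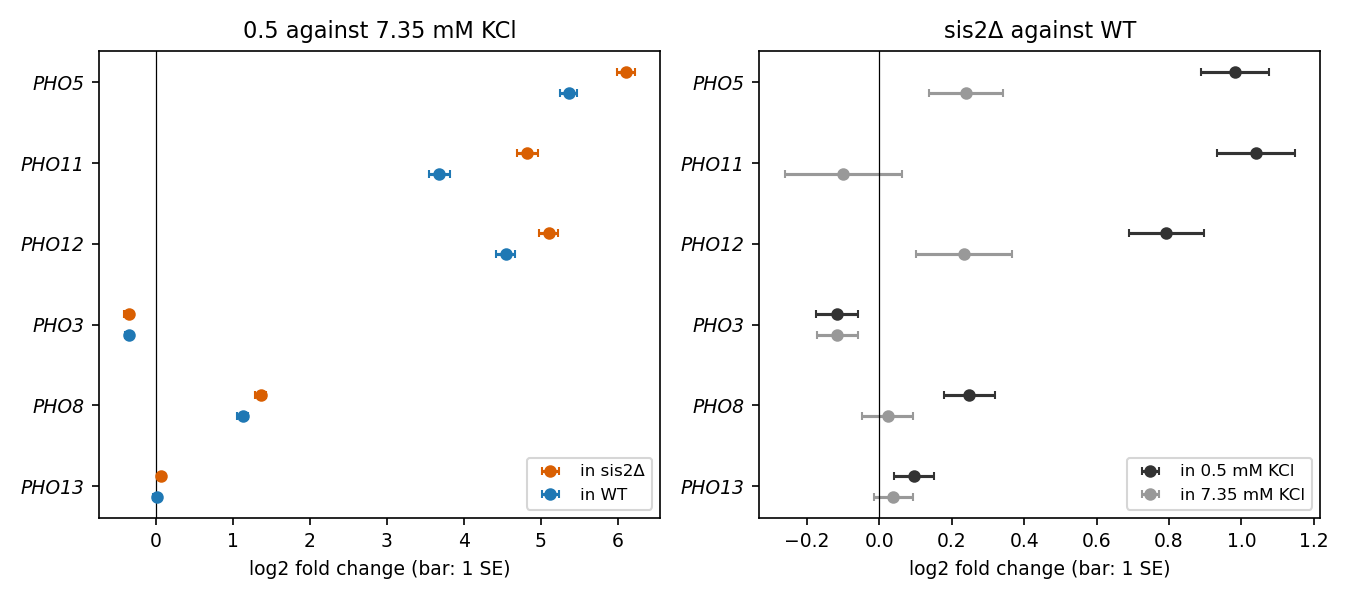
Log2 fold changes of the 6 phosphatase genes with bars of 1 SE, for 0.5 against 7.35 mM KCl in each strain (left) and for *sis2*Δ against WT at each KCl concentration (right). On the left, *PHO5*, *PHO11* and *PHO12* lie between 3.68 and 6.10, *PHO8* at 1.13 and 1.36, and *PHO3* at -0.35; on the right, the 3 repressible acid phosphatases lie between 0.79 and 1.04 in 0.5 mM KCl and between -0.10 and 0.24 in 7.35 mM KCl.

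Per kb, the order of the levels changed with potassium. In *sis2*Δ in 0.5 mM KCl the means were 1550 ± 274 CPM per kb for *PHO5*, 265 ± 42.1 for *PHO12*, 231 ± 1.36 for *PHO3*, 151 ± 13.5 for *PHO8*, 140 ± 6.76 for *PHO13* and 108 ± 22.3 for *PHO11* (SD, n = 3). The libraries of *PHO12* and *PHO3* overlapped, as did those of *PHO8* and *PHO13*. In WT in 0.5 mM KCl the order was *PHO5* (784 ± 80.6), *PHO3* (250 ± 8.21), *PHO12* (153 ± 26.8), *PHO13* (131 ± 4.29), *PHO8* (127 ± 10.4) and *PHO11* (52.4 ± 7.95), and *PHO12*, *PHO13* and *PHO8* overlapped. In *sis2*Δ in 7.35 mM KCl *PHO3* came first with 294 ± 13.5 CPM per kb, followed by *PHO13* (133 ± 3.59), *PHO8* (59.0 ± 1.12), *PHO5* (22.6 ± 0.592), *PHO12* (7.74 ± 0.762) and *PHO11* (3.81 ± 0.208). The order was the same in WT in 7.35 mM KCl, with 319 ± 8.31 for *PHO3*, 19.1 ± 0.228 for *PHO5* and 4.07 ± 0.212 for *PHO11*. Neighbours in the order did not overlap in either strain in standard potassium.

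Most other known targets of Pho4 were also higher in low potassium. The list held 15 genes outside the 6 phosphatases, among them genes of phosphate uptake, polyphosphate synthesis and pathway feedback. It was set up with earlier results of these libraries known, so that it is no independent evidence of a direction. Of the 15, 13 had the palindrome and 9 the variant in the 600 bases before the coding start. All motif matches of *CTF19* and *VTC3* are the same bases between these genes, so that they count for both. In 0.5 against 7.35 mM KCl, 14 of 15 rose in *sis2*Δ and 1 fell (edgeR quasi-likelihood test, adjusted p under 0.05 over all features), beside 24.2% of all features that rose and 21.7% that fell. In WT, 14 rose and 0 fell, beside 24.1% that rose and 23.2% that fell. At an unadjusted p under 0.05 and with DESeq2 the number that fell in WT was also 0. The median log2 change of the list was 1.84 in *sis2*Δ and 1.34 in WT, beside 0.00232 and -0.00119 over all features.

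*PHO84*, the high-affinity phosphate transporter, averaged 2200 ± 82.9 CPM in *sis2*Δ in 0.5 mM KCl, 1270 ± 137 in WT in 0.5 mM KCl, 67.8 ± 8.02 in *sis2*Δ in 7.35 mM KCl and 29.4 ± 3.30 in WT in 7.35 mM KCl (SD, n = 3 each). Its potassium change was 5.02 ± 0.105 in *sis2*Δ (adjusted p = 1.93e-19) and 5.43 ± 0.108 in WT (adjusted p = 2.07e-19). *SPL2*, which lowers the activity of low-affinity phosphate uptake, rose by 5.26 ± 0.136 in *sis2*Δ (adjusted p = 7.93e-18) and by 5.27 ± 0.157 in WT (adjusted p = 7.01e-17). *PHO89*, the sodium-coupled phosphate transporter, rose by 3.79 ± 0.167 in *sis2*Δ (adjusted p = 8.46e-14) and by 3.04 ± 0.174 in WT (adjusted p = 6.32e-12). *PHM6*, a phosphate-regulated gene without a known activity, rose by 4.77 ± 0.0963 in *sis2*Δ (adjusted p = 1.34e-19) and by 3.37 ± 0.0949 in WT (adjusted p = 3.17e-17).

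The vacuolar transporter chaperone genes, which make polyphosphate, rose by smaller factors. *VTC3* rose by 2.73 ± 0.0622 in *sis2*Δ (adjusted p = 8.36e-19) and by 2.42 ± 0.0619 in WT (adjusted p = 8.65e-18). *VTC1* rose by 2.18 ± 0.0759 in *sis2*Δ (adjusted p = 1.89e-15) and by 1.58 ± 0.0746 in WT (adjusted p = 2.11e-13). The gene that fell in *sis2*Δ was *PPN1*, a polyphosphatase, at -0.17 ± 0.0592 (adjusted p = 0.0221). Without replicate 1 of *sis2*Δ in 0.5 mM KCl, or without replicate 2 or replicate 3 of *sis2*Δ in 7.35 mM KCl, the count that fell was 0.

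The strain comparison in low potassium called 14 of the 15 Pho4 targets higher in *sis2*Δ and 0 lower, where 1.20% of all features were called higher and 0.583% lower. The count of lower genes was also 0 at an unadjusted p under 0.05 and with DESeq2. The count of higher genes ranged from 11 to 14 over the left-out libraries and from 13 to 14 under the other alternatives. The median of the list was 0.52, beside 0.00102 over all features. *PHM6* was higher by 1.01 ± 0.0700 (adjusted p = 5.50e-09), *SPL2* by 0.93 ± 0.0941 (adjusted p = 2.54e-06) and *PHO89* by 0.83 ± 0.129 (adjusted p = 0.00057). *PHO84* was higher by 0.80 ± 0.0886 (adjusted p = 8.93e-06), *VTC1* by 0.65 ± 0.0727 (adjusted p = 9.13e-06) and *VTC3* by 0.61 ± 0.0580 (adjusted p = 1.14e-06).

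In standard potassium, the strain comparison called 4 of the 15 higher and 1 lower in *sis2*Δ, where 6.38% of all features were called higher and 7.04% lower, and the list's median was 0.07, beside -0.000325 over all features. *PHO84* was higher by 1.21 ± 0.0950 (adjusted p = 2.05e-08), where the phosphatases lay between -0.12 and 0.24. *SPL2* was higher by 0.94 ± 0.248 (adjusted p = 0.0150), at 1.52 to 1.63 CPM in *sis2*Δ and 0.548 to 1.14 CPM in WT. *VTC3* was higher by 0.31 ± 0.0603 (adjusted p = 0.00158) and *PHO81* by 0.20 ± 0.0645 (adjusted p = 0.0394). The call of *PHO81* was lost under 5 of 18 alternatives, with adjusted p up to 0.129, and that of *SPL2* under 1 of 18, with an adjusted p of 0.0872. The lower gene was *GIT1*, a glycerophosphoinositol transporter, at -0.36 ± 0.119 (adjusted p = 0.0479), and with the replicate as a block its adjusted p was 0.0538. Its call was lost under 11 of 18 alternatives, with adjusted p up to 0.261. Without replicate 1 of WT in 7.35 mM KCl the higher calls numbered 2, and over all left-out libraries the lower calls ranged from 0 to 2.

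The test of whether the strain difference depended on potassium called 7 of the 15 Pho4 targets higher in 0.5 mM KCl and 0 lower, where 1.70% of all features were called higher and 1.03% lower. At an unadjusted p under 0.05, for which no share over all features was computed, 11 were higher and 1 lower. DESeq2 called 9 higher and 1 lower. Among the called genes, *PHM6* had the largest such difference with 1.40 ± 0.151 (adjusted p = 4.43e-06), followed by *GIT1* with 0.81 ± 0.152 (adjusted p = 0.00341) and *VTC1* with 0.61 ± 0.103 (adjusted p = 0.00127). *PHO84* had a difference of -0.41 ± 0.129 (adjusted p = 0.0923). The same term for the phosphatases, given as a description, was 1.14 ± 0.194 for *PHO11*, 0.74 ± 0.138 for *PHO5*, 0.56 ± 0.168 for *PHO12*, 0.23 ± 0.0999 for *PHO8*, 0.06 ± 0.0779 for *PHO13* and -0.0012 ± 0.0808 for *PHO3*. For the summed *PHO11* and *PHO12* it was 0.74 ± 0.163. Without replicate 2 of WT in 0.5 mM KCl, or without replicate 2 of WT in 7.35 mM KCl, the calls among the Pho4 targets numbered 4.

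**Figure D5:**
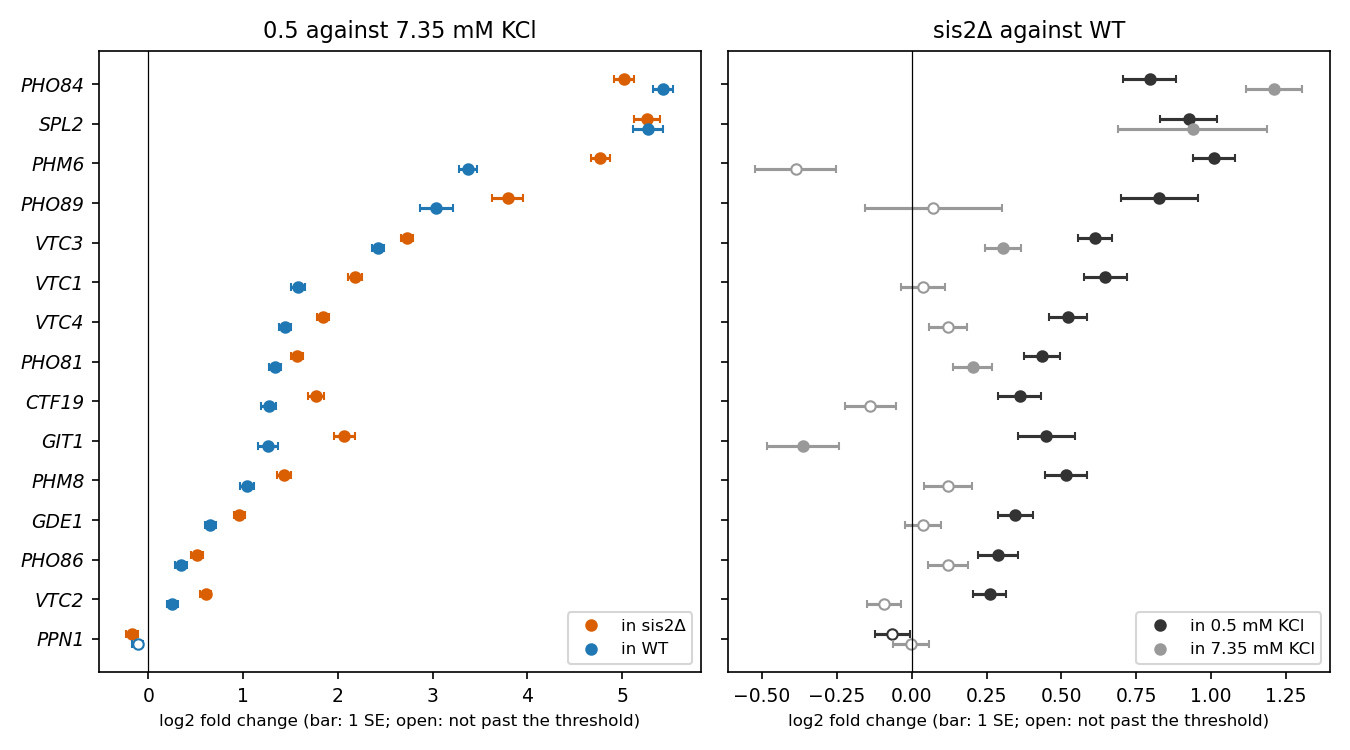
Log2 fold changes of the 15 other Pho4 targets with bars of 1 SE, for 0.5 against 7.35 mM KCl in each strain (left) and *sis2*Δ against WT at each KCl concentration (right). Filled points passed the threshold of adjusted p under 0.05 and open points did not; 14 of 15 genes rose with low potassium in either strain, and in *sis2*Δ against WT 14 of 15 passed in 0.5 mM KCl and 5 of 15 in 7.35 mM KCl.

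The 15 listed genes that relay the phosphate signal or carry phosphate with low affinity had median changes near 0. *PHO81*, which also relays the signal, was counted among the Pho4 targets and not in this list. With low potassium *PHO81* rose by 1.57 ± 0.0631 in *sis2*Δ (edgeR, adjusted p = 1.89e-14) and by 1.34 ± 0.0635 in WT (adjusted p = 2.11e-13). *PHO4* averaged 46.6 ± 1.04 CPM in *sis2*Δ in 0.5 mM KCl, 43.7 ± 2.80 in WT in 0.5 mM KCl, 45.5 ± 4.17 in *sis2*Δ in 7.35 mM KCl and 46.9 ± 3.72 in WT in 7.35 mM KCl (SD, n = 3 each). Of 15 such genes, 4 rose and 4 fell with low potassium in *sis2*Δ, and 2 rose and 4 fell in WT. These counts stand beside 24.2% of all features that rose and 21.7% that fell in *sis2*Δ, and 24.1% and 23.2% in WT, so that nothing particular to these genes is read from them. The median log2 change was 0.04 in *sis2*Δ and 0.01 in WT, beside 0.00232 and -0.00119 over all features. Those that fell included *PHO90*, a low-affinity phosphate transporter, with changes of -0.48 ± 0.0612 in *sis2*Δ (adjusted p = 2.14e-06) and -0.61 ± 0.0610 in WT (adjusted p = 5.23e-08), and *PSE1*, the importin that carries Pho4 into the nucleus, with changes of -0.39 ± 0.0661 in *sis2*Δ (adjusted p = 7.53e-05) and -0.42 ± 0.0660 in WT (adjusted p = 2.43e-05). *DDP1*, a polyphosphate and inositol pyrophosphate phosphatase, rose by 0.47 ± 0.0651 in *sis2*Δ (adjusted p = 5.40e-06) and 0.28 ± 0.0656 in WT (adjusted p = 0.0014). The rising count was 2 in *sis2*Δ without replicate 2 of *sis2*Δ in 7.35 mM KCl, and 1 in WT without replicate 3 of WT in 0.5 mM KCl.

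Between the strains, 1 of the 15 was called higher and 0 lower in *sis2*Δ in 0.5 mM KCl, where 3 were higher and 2 lower at an unadjusted p under 0.05 and DESeq2 called 0 lower. Over all features, 1.20% were higher and 0.583% lower. The gene was *DDP1*, at 0.32 ± 0.0648 (adjusted p = 0.0103). Its call was lost, with a count of 0, without replicate 1 or replicate 3 of either strain in 0.5 mM KCl. In 7.35 mM KCl, 0 were higher and 1 lower, *PHO91*, a vacuolar phosphate exporter, at -0.27 ± 0.0712 (adjusted p = 0.0152), and its call was lost under 3 of 18 alternatives, with adjusted p up to 0.114. Over all features, 6.38% were higher and 7.04% lower, so that a count of 1 is near the background. At an unadjusted p under 0.05, 2 were higher and 4 lower there, DESeq2 called 0 higher and 3 lower, and the fit with the replicate block called 3 lower. Leaving out a library gave 0 to 1 higher and 0 to 3 lower. The interaction called 0 of 15 in either direction, and 0 by DESeq2, beside 1.70% of all features called higher and 1.03% lower. At an unadjusted p under 0.05, 2 were higher and 1 lower. The share of all features at an unadjusted p was not computed, so that nothing is read from such counts here.

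Thiamine genes were counted because thiamine represses *PHO3*. The list of 21 included genes of thiamine synthesis, uptake and regulation and the vitamin B6 genes *SNZ2*, *SNZ3*, *SNO2* and *SNO3*. Of the 21, 15 rose and 0 fell with low potassium in *sis2*Δ, and 13 rose and 1 fell in WT. Over all features, 24.2% rose and 21.7% fell in *sis2*Δ, and 24.1% rose and 23.2% fell in WT. The median log2 change of the list was 0.38 in *sis2*Δ and 0.29 in WT, beside 0.00232 and -0.00119 over all features. *THI12*, a gene of the pyrimidine branch of thiamine synthesis, rose by 1.29 ± 0.114 in *sis2*Δ (adjusted p = 9.74e-09) and by 1.27 ± 0.122 in WT (adjusted p = 2.72e-08), at 7.46 to 8.99 CPM in *sis2*Δ in 0.5 mM KCl and 5.94 to 6.58 CPM in WT in 0.5 mM KCl. *THI5*, *THI11*, *THI12* and *THI13* are near-identical copies, so that their separate values are uncertain. *THI4*, of the thiazole branch, rose by 0.59 ± 0.0980 in *sis2*Δ (adjusted p = 4.73e-05) and by 0.48 ± 0.0994 in WT (adjusted p = 0.000416), at 9.49 to 17.6 CPM over all libraries. At an unadjusted p under 0.05 and with DESeq2, 0 fell in *sis2*Δ. Without replicate 2 of *sis2*Δ in 0.5 mM KCl, 1 fell in *sis2*Δ, and without replicate 2 or 3 of WT in 0.5 mM KCl or replicate 2 of WT in 7.35 mM KCl, 0 fell in WT.

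Between the strains in 0.5 mM KCl, 0 of the 21 thiamine genes were called in either direction, and 0 by DESeq2. Over all features, 1.20% were higher and 0.583% lower. At an unadjusted p under 0.05, 9 thiamine genes were higher and 2 lower. The share of all features at that threshold was not computed, so that nothing is read from these counts. In 7.35 mM KCl, 1 was higher in *sis2*Δ and 2 were lower, counts near the 6.38% higher and 7.04% lower over all features. The higher one was *THI7*, the thiamine transporter, by 0.45 ± 0.0538 (adjusted p = 9.33e-06), at 59.0 to 60.7 CPM in *sis2*Δ and 42.9 to 45.4 CPM in WT. The lower ones were *SNO3* at -0.38 ± 0.113 (adjusted p = 0.0275) and *THI21* at -0.23 ± 0.0753 (adjusted p = 0.0444). The call of *THI21* was lost under 10 of 18 alternatives, with adjusted p up to 0.265, and that of *SNO3* under 3 of 18, with adjusted p up to 0.153. Over the left-out libraries the higher calls ranged from 1 to 2 and the lower calls from 0 to 2. For the interaction 0 were higher and 1 lower, beside 1.70% higher and 1.03% lower over all features. At an unadjusted p under 0.05, 5 were higher and 1 lower, again without a share over all features. DESeq2 called 0 higher and 1 lower, and the fit with the replicate block called 1 higher.

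Changes with potassium are given here for the genes directly beside the phosphatases. They stand beside 24.2% of all features that rose and 21.7% that fell in *sis2*Δ, and 24.1% and 23.2% in WT. Nothing is read from how many of these neighbours changed. *PBY1*, 1084 bases upstream of *PHO5* on the other strand, differed by 0.06 (adjusted p = 0.402) with potassium in *sis2*Δ and by -0.01 (adjusted p = 0.857) in WT. *TIM12*, an essential gene of mitochondrial inner membrane import that follows *PHO3* after 213 bases, fell, with changes of -0.31 (adjusted p = 0.0136) in *sis2*Δ and -0.36 (adjusted p = 0.00381) in WT. The fall in *sis2*Δ was -0.24 (adjusted p = 0.0792) without replicate 1 of *sis2*Δ in 0.5 mM KCl. *AIM6*, beside *PHO13*, was not called for potassium in *sis2*Δ (0.03, adjusted p = 0.662) or in WT (0.14, adjusted p = 0.061).

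*CWC21*, the splicing gene whose body holds the *PHO8* motifs, differed by 0.01 (adjusted p = 0.895) with potassium in *sis2*Δ and by -0.24 (adjusted p = 0.00993) in WT. The WT call was lost, with adjusted p up to 0.066, without replicate 1 of WT in 0.5 mM KCl or replicate 1 or 3 of WT in 7.35 mM KCl. *YPD1*, beside *PHO13*, differed by -0.02 (adjusted p = 0.789) in *sis2*Δ and by -0.23 (adjusted p = 0.00502) in WT, and without replicate 1 of WT in 0.5 mM KCl its adjusted p was 0.0528. *DIG2*, on the other side of *PHO8*, differed by 0.09 (adjusted p = 0.32) in *sis2*Δ and by -0.21 (adjusted p = 0.0231) in WT, with adjusted p up to 0.0894 when replicate 2 of WT in 0.5 mM KCl or replicate 1 or 3 of WT in 7.35 mM KCl was left out. *YHR214C-E*, 599 bases upstream of *PHO12* on the other strand, rose by 1.77 (adjusted p = 0.000702) in *sis2*Δ and by 1.45 (adjusted p = 0.00292) in WT, at group means of 0.22 to 0.742 CPM. *YAR068W*, beside *PHO11*, differed by 0.13 (adjusted p = 0.719) in *sis2*Δ and by 0.23 (adjusted p = 0.462) in WT.

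*IMD2*, an IMP dehydrogenase gene of guanine nucleotide synthesis, lies 893 bases downstream of *PHO12* on the same strand. It averaged 24.6 ± 2.73 CPM in *sis2*Δ in 0.5 mM KCl, 58.4 ± 6.21 in WT in 0.5 mM KCl, 26.8 ± 1.88 in *sis2*Δ in 7.35 mM KCl and 194 ± 1.49 in WT in 7.35 mM KCl (SD, n = 3 each). Its level was lower in *sis2*Δ than in WT, with differences of -1.25 in 0.5 mM KCl (adjusted p = 1.90e-09) and -2.85 in 7.35 mM KCl (adjusted p = 1.41e-16). With low potassium it differed by -0.13 (adjusted p = 0.203) in *sis2*Δ, and it fell in WT, by -1.74 (adjusted p = 6.45e-14). Its order over the groups was thus the reverse of that of *PHO12* for both strain comparisons and for potassium in WT.

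As a description over the 12 libraries, which share the same 4 groups, Pearson's r of log2 CPM between *PHO5* and *PHO12* was 0.9993, between *PHO5* and *PHO11* 0.997, and between *PHO5* and *PHO8* 0.994. Among all tested genes, the most alike to *PHO5* were *PHO12*, *GTO3* (0.998) and *VTC3* (0.9968). *GTO3*, a glutathione transferase gene of the omega class, was also among the 3 most alike for *PHO11* (0.9982), *PHO12* (0.9984) and *PHO8* (0.9959). It averaged 15.8 ± 1.41 CPM in *sis2*Δ in 0.5 mM KCl, 11.2 ± 1.09 in WT in 0.5 mM KCl, 2.69 ± 0.169 in *sis2*Δ in 7.35 mM KCl and 2.62 ± 0.0883 in WT in 7.35 mM KCl (SD, n = 3 each). *PHO3* was most alike to *SHM2* (0.9864) and *GCV2* (0.9845), genes of serine and glycine C1 metabolism, and *AIF1* (0.9825), and its r with *PHO5* was -0.954. *PHO13* was most alike to *ALD2* (0.8469), *GDB1* (0.8391) and *NTH2* (0.8387), and its r with the other 5 phosphatases was between -0.41 and 0.488.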

How the data were processed

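Poly(A) RNA of 12 cultures was sequenced from directional libraries. The authors deposited a table of expected counts for 7112 features, without normalization, in which reads shared between features are divided, so that 40.11% of the values are whole. The submitters' processing notes name bcl2fastq, cutadapt 2.6, STAR 2.7.6a, featureCounts of Subread 1.6.2 and the build R64; options are not given in the sources used here. Groups came from the sample titles.

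Counts were rounded, filtered with filterByExpr to 6691 features and scaled by TMM (factors 0.9603 to 1.032). A quasi-likelihood model with 1 term per group was fitted to all 12 libraries in edgeR 4.0.16 (R 4.3.3), with no replicate term, as in the study's model. P-values were adjusted by Benjamini-Hochberg over all 6691 features at 0.05. The SE of a log2 fold change is its size divided by the square root of F. Libraries of a group differed by more than counting noise (chi-square per degree of freedom 8.12 to 46.8), and p-values measure the spread between these cultures. Libraries held 35451323 to 46543107 counts. No phosphatase had fewer than 205 counts in any library, so depth did not limit detection. Log2 CPM values used a prior count of 1.

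The labels give the replicate number as a batch, so that numbers pair libraries. Deviations from group means correlated with a median r of 0.0552 over 18 pairs of the same number (-0.0923 to 0.265, 4 above 0.1) and -0.0353 over 36 pairs of different numbers (-0.219 to 0.201, 2 above 0.1).

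The members and gene lists were chosen with earlier results of these data known. The text names the 6 genes, *SIS2*, *DIA3*, the chromosomal neighbours and the 3 most alike genes for each member. It also names at most the 6 largest changes past the threshold in a list. Outside that rule stand *PHO4*, *PPN1*, *PHO81* for potassium, *THI4* in WT and *PHO84* in the interaction. These were named after their values were seen. Coding and upstream sequences came from the RefSeq R64 genome, and 6034 of 7112 feature IDs matched its annotation. Alternatives were DESeq2 1.42.0, its size factors, other count filters, the replicate block, 2-group fits, the summed copies and leaving out each library. The code was checked on simulated counts. Figures were drawn with matplotlib 3.10.9.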

Additional observations from a re-analysis of the deposited data

Results flagged for a closer look

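The interaction test of edgeR over all features called 7 Pho4 targets and 1 thiamine gene. For these, the difference between *sis2*Δ and WT itself differed between 0.5 and 7.35 mM KCl. Given here are the thiamine gene and the 6 Pho4 targets with the largest such difference. *PHM6* had a strain difference of 1.01 in 0.5 mM KCl and -0.39 in 7.35 mM KCl, which differ by 1.40 (adjusted p = 4.43e-06). Its difference in 7.35 mM KCl did not itself pass the threshold (edgeR, adjusted p = 0.0588). *PHM6* was there at 1.94 to 2.23 CPM in *sis2*Δ and 2.46 to 2.99 CPM in WT. *GIT1* had 0.45 and -0.36, a difference of 0.81 (adjusted p = 0.00341). *VTC1* had 0.65 and 0.04, a difference of 0.61 (adjusted p = 0.00127). *CTF19* had 0.36 and -0.14, a difference of 0.50 (adjusted p = 0.0154; 0.0506 without replicate 2 of WT in 7.35 mM KCl). *VTC4* had 0.52 and 0.12, a difference of 0.40 (adjusted p = 0.0136; 0.0555 without replicate 2 of WT in 0.5 mM KCl). *PHM8* had 0.52 and 0.12, a difference of 0.40 (adjusted p = 0.0488), which missed the threshold under 11 of 17 alternatives, with adjusted p up to 0.156. *THI7* had 0.15 and 0.45, a difference of -0.30 (adjusted p = 0.0342), which missed it under 6 of 17, with adjusted p up to 0.0989. Each of the first 6 is a Pho4 target outside the phosphatases.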

How the results depend on the processing

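Of 633 recomputed values of the phosphatases, 628 moved by less than the spread between replicates, 0 changed the sign of a difference between groups that did not overlap, and 5 moved further, all when the counts of *PHO11* and *PHO12* were summed. The sum gave 0.117 in place of -0.0995 for *PHO11* between strains in 7.35 mM KCl, 4.27 for both genes for potassium in WT, and 0.743 for both in the interaction. The replicate block, in which numbers pair the libraries, called 3 signalling genes lower in *sis2*Δ in 7.35 mM KCl and 1 thiamine gene higher in the interaction, and it changed no other call but that of *GIT1*. DESeq2 called 2 Pho4 targets, 3 signalling genes and 1 thiamine gene lower in 7.35 mM KCl and 1 Pho4 target lower in the interaction. With DESeq2's size factors, 0 Pho4 targets were lower in 7.35 mM KCl. Fits of 2 groups called 2 signalling genes and 1 thiamine gene lower in 7.35 mM KCl, and 0 thiamine genes lower with potassium in WT. The causes were not tested. Leaving out a library moved the calls of Pho4 targets from 2 to 4 higher and 0 to 2 lower in *sis2*Δ in 7.35 mM KCl. In 0.5 mM KCl the calls of Pho4 targets ranged from 11 to 14 higher in *sis2*Δ. They ranged from 0 to 1 lower with potassium in *sis2*Δ, and from 4 to 8 higher and 0 to 1 lower in the interaction. For signalling genes these ranges were 0 to 1 higher and 0 to 3 lower in 7.35 mM KCl, 0 to 1 higher in 0.5 mM KCl, and 2 to 4 higher in *sis2*Δ and 1 to 2 higher in WT with potassium. For thiamine genes they were 1 to 2 higher and 0 to 2 lower in 7.35 mM KCl, 0 to 1 in either direction in 0.5 mM KCl and in the interaction, and 0 to 1 lower with potassium in either strain. Where a library was left out, its group of 2 was assumed to vary like the others. Levels per transcript length were not run, since the annotated gene models equal the coding sequences, and fits of 2 groups give no interaction.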
